A study of Mus musculus with 12 samples.

Results

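The type IV collagen chains were described by RNA-seq of mouse mesangial cells (MMC), the contractile cells that hold the capillary loops of the glomerulus together. The members were the genes whose symbol is Col4a1, Col4a2, Col4a3, Col4a4, Col4a5 or Col4a6, 6 of the 25230 genes counted, and all 6 passed the limit on low values. WT MMC came from C57BL/6J mice. The libraries labelled KO came from MMC of lncMGC-KO5 mice, 1 line in which Cas9 editing deleted sequence around the start of lncMGC, the long non-coding RNA that hosts the miR-379 microRNA cluster. MMC of both genotypes were primary cultures grown from pooled glomeruli. Treatment was TGF-β at 10 ng/ml for 24 h or serum depletion (SD) without it, which gave the 4 groups WT-SD and WT-TGF, and KO-SD and KO-TGF with 3 libraries each. The labels do not say whether the libraries of a group came from separate cultures or mice, so all p-values measure the spread between these libraries, which may be technical.

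Type IV collagen is the network-forming collagen of basement membranes. Its chains wind into triple-helical protomers of only certain compositions, α1α1α2, α3α4α5 and α5α5α6, which join end to end into a sheet. The α1α1α2 network is present in nearly all basement membranes and is the main one in the mesangial matrix, where it accumulates in diabetic glomeruli. The α3α4α5 network is made mainly by podocytes and forms the mature glomerular basement membrane, and mutations in its chains cause Alport syndrome. The α5α5α6 network is found in Bowman's capsule and around smooth muscle. TGF-β is a well known inducer of matrix genes in MMC.

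Each library had between 19898050 and 22827706 counts on genes. lncMGC has no row in the counts, and the deletion was not checked directly. Mirg, a non-coding RNA that overlaps the end of lncMGC, had between 47 and 59 counts in WT-SD, 73 to 80 in WT-TGF, 72 to 89 in KO-SD and 68 to 87 in KO-TGF, so it was not lower in the libraries labelled KO. In SD it was higher there (log2 fold change 0.68, adjusted p = 6.51e-05, edgeR), and with TGF-β the difference did not pass the test (0.26, adjusted p = 0.145, edgeR). Every direction given for KO is therefore that of the libraries as labelled. Among 10 markers of mesangial and smooth muscle cells, 7 were expressed enough to be tested, and the summed level of the 10 was between 2568 and 2708 CPM (counts relative to TMM-scaled library size) in WT-SD, 5842 to 5997 in WT-TGF, 4966 to 5128 in KO-SD and 11194 to 11285 in KO-TGF. Acta2 and Tagln carried most of this sum (1567 and 714 CPM in WT-SD), and Des, the intermediate filament desmin, went the other way, with 7.67 CPM in WT-SD, 5.62 in WT-TGF, 0.529 in KO-SD and 0.247 in KO-TGF. Of the 7, 6 were higher and 1 lower in KO-SD (30.9% and 25.2% of all genes), and 5 and 2 in KO-TGF (27.2% and 27.8%). The 2 lower in KO-TGF were Des and Pdgfrb (358 against 384 CPM in WT-TGF). Itga8 and Myh11, too low to be tested, were also lower there (0.638 against 1.61 and 0.692 against 1.07 CPM). In SD, Myh11 was lower in KO (0.730 against 1.38 CPM) and Itga8 was not (3.05 against 2.89 CPM). In bulk libraries, fewer cells of a type and less RNA per cell cannot be told apart.

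The 6 genes lie as 3 pairs, head to head, so that the members of a pair are read away from each other from neighboring starts. In GRCm38 (mm10), Col4a1 (NCBI gene 12826, minus strand, from 11198423 to 11312889) and Col4a2 (12827, from 11312805 to 11449287 on the plus strand) are on chromosome 8. Col4a4 (12829, from 82448419 to 82587034 on the minus strand) and Col4a3 (12828, from 82586921 to 82722059 on the plus strand) are on chromosome 1. Col4a6 (94216, from 141165403 to 141474095 on the minus strand) and Col4a5 (12830, from 141475370 to 141689236 on the plus strand) are on chromosome X. The pairs differ in how close the starts are. In the RefSeq promoter table of GRCm38.p6, the first exons of Col4a1 and Col4a2 share 22 bases on opposite strands. Between the first bases of Col4a6 and Col4a5 there are 1342 bases. For Col4a3 the start of the RefSeq gene record was used, and 71 bases lie between it and the promoter-table start of Col4a4. By the gene bounds given above, which take in every transcript model of a gene, Col4a4 reaches past the start of Col4a3 and Col4a1 past that of Col4a2, so the genes of each of these pairs overlap.

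**Figure D1:**
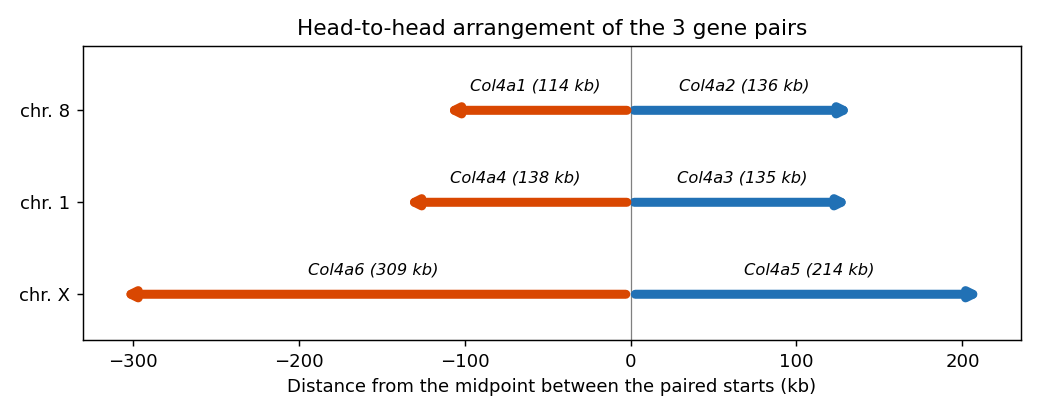
Map of the 3 gene pairs, drawn to scale in kb from the midpoint between the paired starts, with each arrow pointing in the direction of transcription. Each pair starts at the center and runs outward, and Col4a6 is the longest gene.

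The sequences at these starts are shown because the levels of the pairs, given below, moved apart from each other. The first line is the plus strand at chr8:11312797-11312834, with the 22 bases that belong to the first exons of both Col4a1 and Col4a2 in capitals. The second is the plus strand at chr1:82586842-82586928, with the 71 bases between these starts of Col4a4 and Col4a3 in capitals.
Col4a1-Col4a2: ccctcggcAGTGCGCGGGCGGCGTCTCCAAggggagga
Col4a4-Col4a3: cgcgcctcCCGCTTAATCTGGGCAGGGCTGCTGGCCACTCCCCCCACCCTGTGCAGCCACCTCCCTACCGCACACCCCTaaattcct

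The starts of Col4a5 and Col4a6 share no such region, so the 250 bases before each start are shown separately. Col4a5 is the plus strand at chrX:141475169-141475418, with the CCAAT box and the GC box (GGGCGG) in capitals. Col4a6 is the minus strand at chrX:141474077-141474326, with the GC box in capitals, which reads CCGCCC because it lies on the other strand.
Col4a5: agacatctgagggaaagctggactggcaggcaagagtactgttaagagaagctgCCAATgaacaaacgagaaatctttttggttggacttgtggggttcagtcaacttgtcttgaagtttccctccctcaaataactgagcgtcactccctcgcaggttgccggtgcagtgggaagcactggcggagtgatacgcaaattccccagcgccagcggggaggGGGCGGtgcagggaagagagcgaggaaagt
Col4a6: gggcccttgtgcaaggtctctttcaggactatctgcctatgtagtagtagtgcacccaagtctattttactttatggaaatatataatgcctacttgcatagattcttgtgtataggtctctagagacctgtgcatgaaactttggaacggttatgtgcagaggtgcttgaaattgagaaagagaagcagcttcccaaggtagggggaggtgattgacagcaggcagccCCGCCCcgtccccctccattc

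In windows from 250 bases before to 50 bases after the start, searched on both strands, 6 short motifs were counted for Col4a1, Col4a2, Col4a4, Col4a5 and Col4a6 (Col4a3 had no window of its own). The GC box GGGCGG was in 4 of the 5, with 3 matches at Col4a2, 1 each at Col4a1, Col4a5 and Col4a6 and none at Col4a4, and 35.7% of all 32851 promoters hold it. The windows of Col4a1 and Col4a2 overlap, so a match can count for both. That of Col4a4 takes in all bases between its start and that of Col4a3 and runs past the latter. Its matches are therefore not particular to Col4a4. The CCAAT box was at Col4a1, Col4a2 and Col4a5 (37.4% of all promoters), CAGAC, the short SMAD binding element, at Col4a2 and Col4a4 (49.6%), and CACCTG, an E-box that ZEB repressors bind, at Col4a4 (20.2%). Neither TATAAA (13.6% of all promoters) nor the homeodomain site TAATTA (5.29%) was in any of the 5 windows. The windows of Col4a1 and Col4a2 had 74% and 73.7% G and C, that of Col4a4 63.3%, that of Col4a5 52.7% and that of Col4a6 48.3%, beside a median of 52.7% over all promoters. These matches describe the letters only.

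Col4a1 and Col4a2 were among the most abundant transcripts of MMC. Col4a5 was below them, and the other 3 chains were far below. Per length of exon, Col4a1 had 467 RPKM (CPM per kb of exon) in WT-SD and ranked 21 among the 11529 genes tested, and Col4a2 had 418 RPKM and ranked 27. Col4a5 followed with 143 RPKM and rank 121, and then Col4a3 with 19.9, Col4a6 with 13.0 and Col4a4 with 11.1 RPKM. Col4a1, Col4a2 and Col4a5 kept this order at the top in all 4 groups. The order of the 3 rarer chains was Col4a3, Col4a4 and Col4a6 in WT-TGF (47.5, 21.8 and 4.85 RPKM) and in KO-TGF (2.02, 1.61 and 1.07 RPKM). In KO-SD it was Col4a6, Col4a3 and Col4a4 (3.39, 1.33 and 0.941 RPKM). In no group did the libraries of neighbors in the order overlap, and the order was the same with RefSeq transcript lengths.

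**Figure D2:**
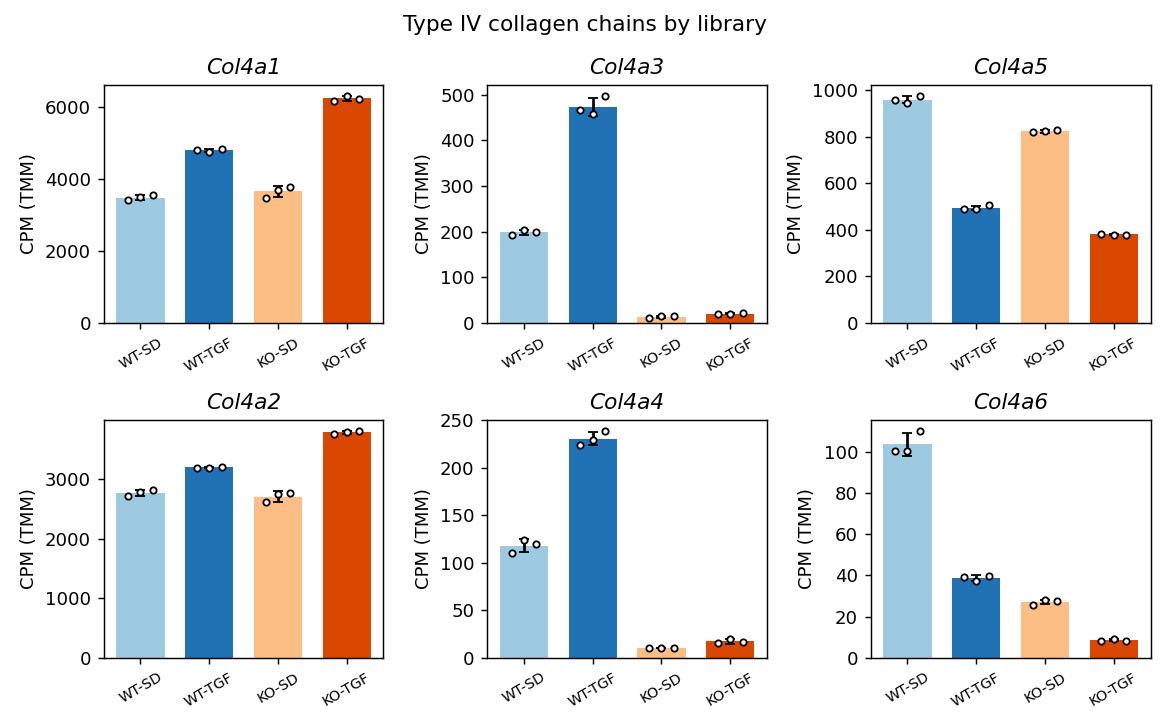
CPM (TMM-scaled) of each type IV collagen gene in WT-SD and WT-TGF, and KO-SD and KO-TGF; bars are means, error bars are the SD of 3 libraries and points are the libraries. Col4a1 and Col4a2 are highest in KO-TGF, Col4a3 and Col4a4 are near the baseline in both KO groups, and Col4a5 and Col4a6 are lower with TGF-β in both genotypes.

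The first comparison asked how the chains responded to TGF-β in WT MMC. The 6 chains divided by gene pair: Col4a1, Col4a2, Col4a3 and Col4a4 rose and Col4a5 and Col4a6 fell. For none of the 6 did the libraries of WT-TGF and WT-SD overlap, which was so for 75.1% of all genes tested. With the quasi-likelihood test in edgeR and Benjamini-Hochberg adjusted p-values, used for every comparison of single genes here (FDR <5%), 36.0% of all genes rose and 36.4% fell, so a call by itself was common, and with a fold change >2 it was 4.14% and 5.79%, which Col4a3 passed upward and Col4a6 downward. The median log2 fold change of the 6 chains was 0.34, beside a median near zero over all genes.

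Col4a3 encodes the α3 chain, whose end domain is the target of the autoantibodies of Goodpasture disease. It had 192, 204 and 198 CPM in the WT-SD libraries and 465, 459 and 496 CPM in the WT-TGF libraries. Its log2 fold change was 1.26 (SE 0.0346, adjusted p = 4.31e-24, edgeR), the largest rise of the 6. Col4a4 encodes the α4 chain, its partner in the α3α4α5 protomer, and went from 110.0, 124 and 120 CPM to 224, 229 and 239 CPM, a log2 fold change of 0.97 (SE 0.0415).

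Col4a1 encodes the more abundant chain of the α1α1α2 protomer. It had 3414, 3490 and 3544 CPM in WT-SD and 4804, 4766 and 4833 CPM in WT-TGF, a log2 fold change of 0.46 (SE 0.0224). Col4a2, its partner, went from 2711, 2773 and 2816 CPM to 3192, 3186 and 3203 CPM, a log2 fold change of 0.21 (SE 0.0210). All WT-TGF libraries were thus above all WT-SD libraries for both genes, with a smaller step for Col4a2. That of Col4a2 was sensitive to the scaling, at 0.05 with library size alone, which moved the median of all genes to -0.16.

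Col4a5, which encodes the α5 chain shared by the α3α4α5 and α5α5α6 protomers, went the other way. It had 958, 947 and 974 CPM in WT-SD and 491, 488 and 505 CPM in WT-TGF, a log2 fold change of -0.96 (SE 0.0223, adjusted p = 5.72e-26, edgeR). Col4a6, which encodes the α6 chain, had 100.5, 100.6 and 110.3 CPM in WT-SD and 39.1, 37.1 and 39.8 CPM in WT-TGF, a log2 fold change of -1.43 (SE 0.0431). Within the α3α4α5 protomer, the transcripts of its first 2 chains therefore rose while that of the α5 chain fell. The 3 came closer in level per length, from 19.9, 11.1 and 143 RPKM in WT-SD to 47.5, 21.8 and 73.6 RPKM in WT-TGF.

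The same comparison in the libraries labelled KO had the same split by gene pair, with Col4a1, Col4a2, Col4a3 and Col4a4 higher and Col4a5 and Col4a6 lower in KO-TGF than in KO-SD, and no overlap of libraries for any of the 6 (74.3% of all genes tested). At FDR <5%, 34.9% of all genes rose and 39.1% fell. The log2 fold change was 0.77 for Col4a1 and 0.48 for Col4a2, 0.61 for Col4a3 and 0.78 for Col4a4, and -1.11 for Col4a5 and -1.67 for Col4a6. The median over the 6 was 0.55. With a fold change >2, the chains called were Col4a5 and Col4a6, both lower, beside 9.15% of all genes lower and 4.37% higher. With library size alone the median of all genes moved to -0.23, and Col4a1 and Col4a2 were at 0.57 and 0.28.

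**Figure D3:**
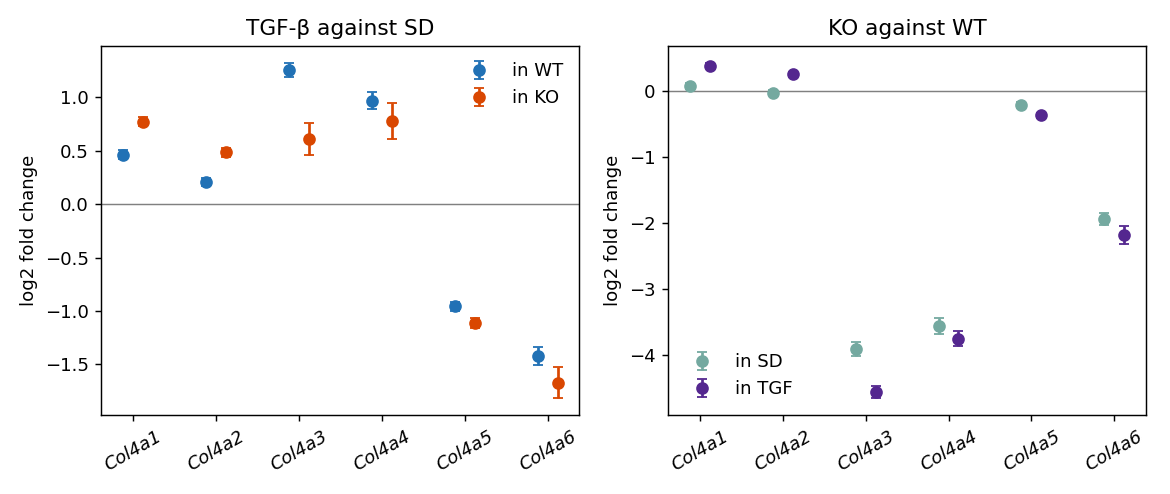
log2 fold changes of the 6 genes for TGF-β against SD in each genotype (left) and for KO against WT in each condition (right), from edgeR; error bars are 95% intervals. With TGF-β, Col4a5 and Col4a6 lie below zero and the other 4 genes above it in both genotypes, and Col4a3 and Col4a4 lie lowest in the comparison of KO with WT.

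The comparison of genotypes asked which chains differed between the libraries labelled KO and WT in each condition. In SD, Col4a3, Col4a4 and Col4a6 were lower in the libraries labelled KO by large factors, and Col4a5 by little. With the FDR alone, 1 chain was higher and 4 were lower, beside 30.9% and 25.2% of all genes. With a fold change >2, none was higher and 3 were lower, beside 3.2% and 3.24% of all genes. The libraries of the groups did not overlap for 4 of the 6 chains, beside 59.2% of all genes, and overlapped for Col4a1 and Col4a2.

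Col4a3 had 11.03, 14.6 and 14.0 CPM in KO-SD against 192 to 204 CPM in WT-SD, 15.0-fold lower, and it ranked 28 from the lowest log2 fold change of 11529 genes. Col4a4 had 9.97, 10.1 and 9.86 CPM in KO-SD, 11.8-fold lower than WT-SD, and ranked 37. Col4a6 had 25.7, 27.9 and 27.6 CPM, 3.84-fold lower (log2 fold change -1.94, SE 0.0457), and ranked 139. Each of these levels was still far above the floor of detection, 3 counts or at most 0.151 CPM. Col4a5, next to Col4a6 on the X chromosome, had 819, 823 and 830.5 CPM in KO-SD, and its log2 fold change was -0.22 (SE 0.0219, adjusted p = 4.99e-10, edgeR).

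The 2 chains of the α1α1α2 protomer did not share this difference. Col4a1 had 3485, 3704 and 3781 CPM in KO-SD, overlapping WT-SD, and a log2 fold change of 0.07 (SE 0.0223, adjusted p = 0.00853, edgeR). This call was lost with DESeq2 (adjusted p = 0.0522), with a fit of only the groups compared (adjusted p = 0.0918) and without WT-SD replicate 1, KO-SD replicate 2 or 3, or any KO-TGF replicate, and the log2 fold change was -0.0053 with library size alone. Col4a2 had 2606, 2744 and 2766 CPM there, also overlapping, and its log2 fold change of -0.03 (SE 0.0210) did not pass the test (edgeR, adjusted p = 0.198). It passed at -0.11 with library size alone and at -0.05 without any 1 KO-TGF replicate.

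Under TGF-β, Col4a1 and Col4a2 were higher and the other 4 chains lower in the libraries labelled KO. At FDR <5% the numbers were 2 higher and 4 lower, beside 27.2% and 27.8% of all genes, and no libraries overlapped for any of the 6 (61.5% of all genes). With a fold change >2, Col4a3, Col4a4 and Col4a6 were lower (4.68% of all genes) and none was higher (1.38%). Col4a3 had 19.5, 20.2 and 20.5 CPM in KO-TGF against 459 to 496 CPM in WT-TGF, 23.5-fold lower (log2 fold change -4.56, SE 0.0478). Col4a4 had 15.4, 19.9 and 16.1 CPM, 13.5-fold lower, and Col4a6 had 8.19, 9.14 and 8.15 CPM, 4.55-fold lower. For Col4a3 and Col4a4, which rose with TGF-β, the KO-TGF libraries were thus below even the WT-SD libraries.

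The opposite held for the α1α1α2 chains. Col4a1 had 6185, 6304 and 6237 CPM in KO-TGF, its highest level of the 4 groups, with a log2 fold change against WT-TGF of 0.38. Col4a2 had 3762, 3786 and 3804 CPM and a log2 fold change of 0.24, which was 0.12 with library size alone, where the median of all genes was -0.13. Col4a5, with 384, 379.7 and 379.6 CPM, differed from WT-TGF by -0.38 on the log2 scale (adjusted p = 5.58e-15, edgeR). The comparisons share groups (WT-SD, for one, is in that of TGF-β in WT and in that of KO in SD), so their values stand side by side here and are not independent.

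Whether the TGF-β response itself differed between genotypes was tested as the interaction, the log2 response in KO minus that in WT. The response of the α1α1α2 chains was larger in KO, by 0.31 for Col4a1 (SE 0.0316) and 0.28 for Col4a2 (SE 0.0297). That of Col4a3 was smaller, by -0.65 (SE 0.0844, adjusted p = 4.49e-07, edgeR). That of Col4a4 did not pass the test (-0.19, 95% interval -0.38 to 0.00, adjusted p = 0.164, edgeR), although it passed at -0.27 without KO-TGF replicate 2. Col4a5 and Col4a6 fell further in KO, by -0.16 and -0.25, the latter with an adjusted p of 0.0400 in edgeR that was lost with DESeq2 (adjusted p = 0.131) and in 9 of the 12 fits that left out 1 library. Over all genes, 8.67% were higher and 16.6% lower in this contrast, beside 2 and 3 of the 6 chains. With a difference of more than 2-fold it was 0.338% and 2.39% of all genes and none of the chains.

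The make-up of the type IV collagen transcripts was expressed as the share of each chain in the summed RPKM of the 6. This sum was 1071 ± 19.2 RPKM (SD, n = 3) in WT-SD, 1273 ± 9.72 in WT-TGF, 1027 ± 34.8 in KO-SD and 1469 ± 9.91 in KO-TGF. Col4a1 took 43.6% of it in WT-SD, 50.5% in WT-TGF, 47.7% in KO-SD and 56.9% in KO-TGF, whereas Col4a2 stayed between 37.9% and 39.8%. The share of Col4a5 was 13.3% and 11.95% in SD and 5.78% and 3.86% with TGF-β, in WT and KO in that order. Col4a3 and Col4a4 together took 2.89% ± 0.0932 in WT-SD, 5.44% ± 0.168 in WT-TGF, 0.221% ± 0.0130 in KO-SD and 0.247% ± 0.0155 in KO-TGF. The summed level of the family was thus highest in KO-TGF, where Col4a3 and Col4a4 were a small share of it.

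**Figure D4:**
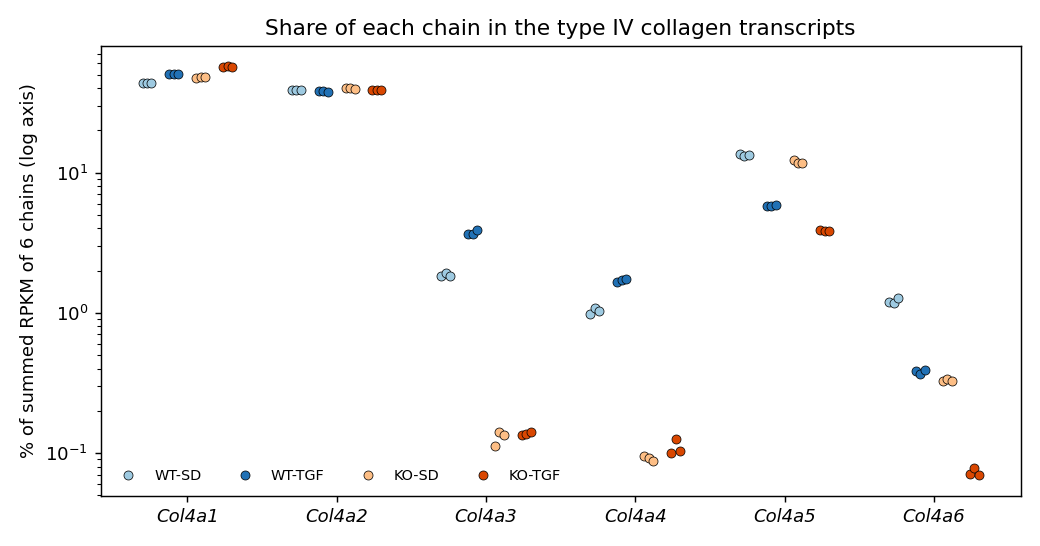
Share of each chain in the summed RPKM of the 6 type IV collagen genes, in percent on a log axis; each point is a library. Col4a1 and Col4a2 hold most of the transcripts in every group, and Col4a3 and Col4a4 are near 0.1% each in the KO libraries.

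Ratios between chains within a library do not depend on the scaling of the library. Per length, the α1 and α2 transcripts together exceeded the α3 and α4 transcripts 28.6 ± 0.866-fold (SD, n = 3) in WT-SD, 16.3 ± 0.537-fold in WT-TGF, 397 ± 22.4-fold in KO-SD and 389 ± 23.7-fold in KO-TGF. With TGF-β, the log2 ratio of α3 and α4 to α1 and α2 changed by 0.81 (SE 0.0377) in WT, with an exact two-sided permutation p of 0.1, the smallest that 3 against 3 libraries allow. In KO the same ratio changed by 0.032 (SE 0.0696, exact permutation p = 0.7), and it changed sign when KO-SD replicate 1 (-0.010) or KO-TGF replicate 2 (-0.017) was left out, so no direction was shown there. The ratio differed between genotypes by -3.80 in SD and -4.58 with TGF-β (exact permutation p = 0.1 each). Of the 28 ratio comparisons made this way, none can pass 0.05, and the adjusted p was 0.108 for those at 0.1.

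The ratio of Col4a5 to α1 and α2 fell with TGF-β by 1.30 on the log2 scale in WT and by 1.76 in KO, and the α1 and α2 transcripts exceeded Col4a5 6.19-fold in WT-SD, 15.3-fold in WT-TGF, 7.32-fold in KO-SD and 24.8-fold in KO-TGF. Relative to its partners in the α3α4α5 protomer, Col4a5 was 4.61-fold above the sum of Col4a3 and Col4a4 in WT-SD and 1.06-fold in WT-TGF. In the libraries labelled KO it was 54.3-fold above them in SD and 15.7-fold with TGF-β. The excess of α5 transcripts was thus smallest in WT-TGF and largest in KO-SD.

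Within each head-to-head pair the ratio was not fixed either. Col4a1 to Col4a2 was 1.12 in WT-SD, 1.33 in WT-TGF, 1.20 in KO-SD and 1.46 in KO-TGF, and the libraries of no 2 groups overlapped. Col4a3 to Col4a4 was 1.79, 2.18, 1.41 and 1.26 in the same order, where the libraries of KO-SD (1.18 to 1.54) and KO-TGF (1.08 to 1.36) overlapped (exact permutation p = 0.5), so no change with TGF-β was shown in KO. Col4a5 to Col4a6 was 10.98, 15.2, 36.2 and 53.4, the widest range of the 3 pairs. Across the 12 libraries, Pearson's r of log2 CPM was 0.989 for Col4a1 and Col4a2, 0.997 for Col4a3 and Col4a4 and 0.798 for Col4a5 and Col4a6. Between pairs it was -0.140 for Col4a1 and Col4a3 and -0.981 for Col4a1 and Col4a5. These r describe the 12 libraries, which share the 4 group means.

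**Figure D5:**
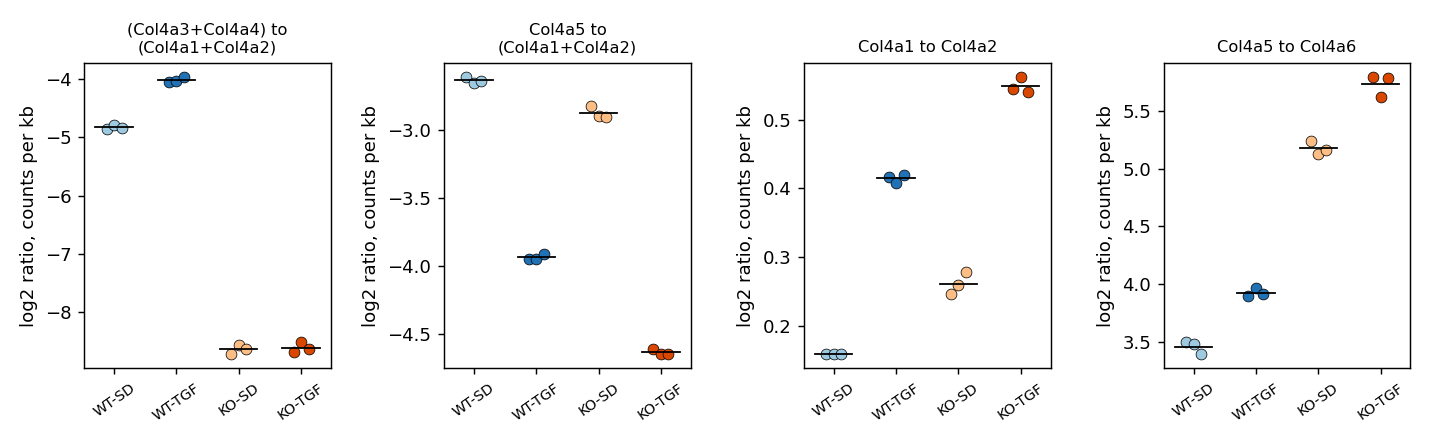
log2 ratios of counts per kb between type IV collagen chains in each library (points), with the group mean as a line, for 4 of the ratios; the axes do not start at zero. The ratio of Col4a3 and Col4a4 to Col4a1 and Col4a2 is higher with TGF-β in WT and overlaps between KO-SD and KO-TGF.

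Likeness was searched over 10075 genes averaging 5 CPM or more. The 5 whose log2 CPM followed the mean of Col4a3 and Col4a4 most closely over the 12 libraries were Gpx7 (r = 0.997), Serpinf1, Adgrg1, Cacna1g and Synpo (r = 0.989). For the mean of Col4a1 and Col4a2 they were Srebf2 (r = 0.998), Abhd2, Map4, S100a6 and Scd1 (r = 0.992). Gpx7, a peroxidase of the endoplasmic reticulum, had 14.3 CPM in WT-SD, 25.3 in WT-TGF, 2.09 in KO-SD and 2.80 in KO-TGF. Srebf2, the regulator of cholesterol synthesis genes, rose by 0.84 with TGF-β in WT and by 1.47 in KO on the log2 scale. Since these genes were picked for their likeness, it is not tested.

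Because the α3α4α5 network belongs to podocytes, markers of other glomerular cells were set beside Col4a3 and Col4a4. Of 12 podocyte markers, 6 were expressed enough to be tested, and all 6 were lower in the libraries labelled KO in both conditions, with median log2 fold changes of -1.77 in SD and -1.92 with TGF-β (0.02 and 0.00 over all genes, of which 25.2% and 27.8% were lower). The summed level of the 12 was 515 to 524 CPM in WT-SD, 481 to 497 in WT-TGF, 236 to 243 in KO-SD and 215 to 231 in KO-TGF. Synpo, 1 of the 5 genes picked above for likeness to Col4a3 and Col4a4, made up 246, 313, 160 and 173 CPM of these. Nphs1, a defining slit diaphragm gene, had at most 1 count in any library, and in KO-TGF it was at 0, as were Ptpro and Tcf21. Wt1, the podocyte transcription factor, fell with TGF-β from 98.9 to 68.2 CPM in WT, where Col4a3 and Col4a4 rose, and was 25.3 and 11.7 CPM in KO-SD and KO-TGF. Podxl also fell with TGF-β in WT, whereas Synpo, an actin-binding protein, rose from 246 to 313 CPM. The part of these genes in the levels of Col4a3 and Col4a4 was not tested.

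Of 8 macrophage markers 4 were tested, and all 4 were lower in KO in both conditions. The shares of all genes lower there were 25.2% in SD and 27.8% with TGF-β. Sums over the 8 were 27.5 to 30.1 CPM in WT-SD and 16.6 to 20.5 CPM in WT-TGF. In KO-SD they were 2.20 to 2.61 CPM, and in KO-TGF 1.12 to 1.71 CPM. Adgre1 and Tyrobp were at 0 in both KO groups. The sums in the same order were 75.7 to 81.4, 22.6 to 25.9, 24.3 to 25.7 and 12.5 to 13.4 CPM for 10 tubular markers. Slc34a1, Umod and Aqp2 were at 0 in all groups. Lrp2 and Cdh16 carried most of the sum in WT-SD (42.6 and 27.5 CPM). Of the 3 tested, 1 was higher in KO-SD (Aqp1, 6.80 against 4.10 CPM) and 2 lower, beside 30.9% and 25.2% of all genes. In KO-TGF all 3 were lower (27.8%). Slc12a1, too low to be tested, was higher in KO in both conditions (1.25 against 0.358 CPM in SD and 3.05 against 0.843 CPM with TGF-β). For 8 endothelial markers the sums were 33.1 to 33.5, 20.2 to 22.6, 17.2 to 18.5 and 9.25 to 10.9 CPM. Ehd3, the only 1 tested, carried nearly all of these sums (32.6, 20.8, 17.1 and 9.70 CPM). Cldn5 was at 0 in all groups, and the rest were near the floor of detection. The part of all these markers in the levels of the collagen chains was not tested. Among the sex-linked genes, Xist had at most 9 counts in any library. Of 4 Y-linked genes, 3 were lower in KO-SD and 2 in KO-TGF, beside 25.2% and 27.8% of all genes. The largest of these differences was that of Eif2s3y, with log2 fold changes of -0.43 in SD and -0.44 with TGF-β.

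Of 19 genes that make, modify and crosslink collagen, 18 were tested, and in each genotype 14 rose with TGF-β and 4 fell (P4ha2, P3h2, P3h3 and Crtap, prolyl hydroxylases and, for Crtap, a partner of these enzymes), with medians of 0.58 in WT and 0.53 in KO. Over all genes, 36.0% rose and 36.4% fell in WT, and 34.9% and 39.1% in KO. Serpinh1 (HSP47), the collagen chaperone, had 1221 CPM in WT-SD, 1807 in WT-TGF, 1955 in KO-SD and 2849 in KO-TGF. Pxdn, the peroxidase that forms the sulfilimine bonds between type IV collagen protomers, had 408, 1081, 646 and 1279 CPM in the same order. Its response was smaller in KO (interaction -0.42, SE 0.0339), in contrast to that of Col4a1 and Col4a2. Between genotypes, 13 of the 18 were higher and 2 lower in SD, and 13 and 4 with TGF-β, with medians of 0.23 and 0.25, beside 30.9% and 25.2% of all genes in SD and 27.2% and 27.8% with TGF-β. P4ha3, a prolyl hydroxylase subunit, was among those lower in KO-TGF (log2 fold change -0.82).

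The transcription factors linked to these genes were compared between genotypes as well. Of 9 tested, 1 was higher and 3 were lower in KO-SD, 2 and 3 in KO-TGF, beside 30.9% and 25.2% of all genes in SD and 27.2% and 27.8% with TGF-β. None of the 9 differed in the TGF-β response at FDR <5% (8.67% and 16.6% of all genes). Lmx1b, the homeodomain factor linked to Col4a3 and Col4a4 in podocytes, had 101 CPM in WT-SD, 67.7 in WT-TGF, 86.8 in KO-SD and 55.4 in KO-TGF. It was lower in KO by 0.22 and 0.29 on the log2 scale in SD and TGF-β, and fell with TGF-β where Col4a3 and Col4a4 rose. Zeb1, a repressor that binds CACCTG, had 118, 128, 137 and 151 CPM in the same order and was higher in KO (log2 fold change 0.21 and 0.23). Zeb2, which binds the same motif, had 192, 231, 160 and 197 CPM and was lower in KO (-0.26 and -0.24), so the ZEB factors did not share a direction. Smad1, linked to Col4a1 in MMC, had 36.8, 38.4, 38.0 and 43.8 CPM, and Smad3 had 153 and 143 CPM in SD and 108.5 and 102.5 CPM with TGF-β, in WT and KO.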

How the data were processed

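mRNA libraries of 12 MMC samples were analysed, 3 in each of 4 groups taken from the sample labels. Alignment of the single-end reads by the authors was to mm10 (TopHat), and uniquely aligned reads on the strand of each RefSeq gene were counted (HTSeq). The deposited values are these counts, whole numbers per gene and library with no normalization. The 5 totals that name no gene were left out: reads on no gene were 10.3% to 15.4%, reads with several alignments 11.2% to 11.7% and ambiguous reads 0.225% to 0.274% of each library. Reads from the 22 bases shared by Col4a1 and Col4a2 are separated by strand.

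The limit of RPKM >1 in any library, TMM scaling and the use of edgeR are those of the study's methods. The exon lengths (GENCODE union exons), which left 11529 genes, and the test, the edgeR quasi-likelihood test (edgeR 4.0.16, R 4.3.3), were chosen here, in one fit of all 12 libraries with a mean per group and Benjamini-Hochberg adjustment. Named genes below that limit were taken from a fit without it. Ratios between chains used counts per kb within a library and an exact two-sided permutation test. The script was tested on simulated counts. Sequences are from RefSeq (GRCm38.p6), and starts from its promoter table, or for Col4a3 from its gene record. A count of 3 was the floor of detection, and intervals cover counting error only where they rest on counts.

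Genes named outside the 6 chains are a fixed set of regulators and crosslinkers, the 2 genes of each list with the largest changes, and the 5 most like each pair. Podxl, Acta2, Tagln, Pdgfrb, Itga8, Myh11, Aqp1, Slc12a1, P4ha2, P3h2, P3h3, Crtap and Ddr1 were named after their values were seen. Some genes that this choice covers are not reported here. The members and lists were chosen with earlier results of these data known. Alternatives were library size alone, DESeq2 1.42.0, 2 other filters, a fit restricted to the groups compared, a block for the replicate number, each library left out and, for ratios, raw counts, a pseudocount of 10 and RefSeq lengths.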

Additional observations from a re-analysis of the deposited data

Results flagged for a closer look

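Of the 6 chains, 5 differed between the genotypes in the TGF-β response, by the interaction of genotype and treatment in edgeR at FDR <5%. Among all genes tested, 8.67% were called higher and 16.6% lower in this interaction. No chain differed by more than 2-fold. The response in the libraries labelled KO minus that in WT was 0.31 for Col4a1 and 0.28 for Col4a2, where KO rose further, -0.65 for Col4a3, where KO rose less, and -0.16 for Col4a5 and -0.25 for Col4a6, where KO fell further. The call for Col4a6 depended on the test and on single libraries. With 3 libraries in a group, single libraries were not tested as outliers.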

How the results depend on the processing

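Of the 30 log2 fold changes of the chains, 26 kept their direction and their side of the threshold under every alternative. The number of chains higher in KO-SD went from 1 to 0 with library size alone, DESeq2 or only the groups compared, and ranged from 0 to 1 with 1 library left out. It counts Col4a1, whose log2 fold change was -0.0053 with library size alone and from 0.05 to 0.10 with 1 library left out. Col4a2 in KO-SD ranged from -0.05 to -0.01, the interaction of Col4a4 from -0.27 to -0.08 and that of Col4a6 from -0.29 to -0.18 (adjusted p from 0.00959 to 0.224 by edgeR's quasi-likelihood test), each with 1 library left out. The change of the ratio of α3 and α4 to α1 and α2 with TGF-β in KO ranged from -0.017 to 0.071 (-0.010 without KO-SD replicate 1, -0.017 without KO-TGF replicate 2). The cause was not tested.

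With library size alone, the calls over all genes became 2641 higher and 6056 lower for TGF-β in WT (4151 and 4198 with TMM), 2295 and 6717 in KO (4027 and 4510), 2444 and 4191 for KO in SD (3566 and 2907) and 1643 and 5409 for KO with TGF-β (3141 and 3200). For the interaction they became 686 and 2648 (1000 and 1915).

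Libraries with the same replicate number did not deviate together (correlations from -0.01 to 0.07), so the numbers were not taken as pairs, and with the replicate number as a block every count of chains called was as without it, 4 higher and 2 lower with TGF-β in WT. Depth limits Col4a3, Col4a4 and Col4a6 in KO most, where counts were lowest.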

Other observations

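Of 8 collagen receptor genes tested, not all of them specific to type IV, 2 had a higher and 4 a lower level in KO in SD (30.9% and 25.2% of all genes). Under TGF-β, 3 had a higher and 5 a lower level (27.2% and 27.8%). Ddr2, a collagen receptor tyrosine kinase, had 24.6 ± 1.56 CPM (SD, n = 3) in WT-SD, 14.0 ± 1.15 in WT-TGF, 263 ± 3.24 in KO-SD and 166 ± 8.21 in KO-TGF, a log2 fold change against WT of 3.42 and 3.57. Ddr1, the other kinase of this family, was lower in KO, with log2 fold changes of -0.78 in SD and -0.58 with TGF-β. Itga2, the α2 integrin subunit, was lower in KO by log2 fold changes of -1.14 and -1.20 and rose with TGF-β in both genotypes.

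Of 10 genes that degrade type IV collagen or inhibit its degradation, 7 were tested, and 5 rose and 2 fell with TGF-β in each genotype, beside 36.0% and 36.4% of all genes in WT and 34.9% and 39.1% in KO. Mmp2, gelatinase A, had 1506 CPM in WT-SD, 2254 in WT-TGF, 1011 in KO-SD and 1158 in KO-TGF. Mmp9, gelatinase B, was low, with 1.02 CPM in WT-SD, 1.76 in WT-TGF, 0.438 in KO-SD and 9.36 in KO-TGF, and its response was larger in KO (interaction 3.62, SE 0.366). Of 18 basement membrane partners 12 were tested, with 5 higher and 5 lower with TGF-β in WT, 5 and 7 in KO, 6 and 4 between genotypes in SD and 5 and 5 with TGF-β, beside the shares of all genes given above for these comparisons. Nid1, which links laminin to type IV collagen, was higher in KO by 1.07 and 1.09 on the log2 scale, and Sparc, a collagen-binding matricellular protein, by 0.54 and 0.45.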
